A study of Mus musculus with 35 samples.

Results

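Mouse tracheas that had been transplanted heterotopically (to a site outside the airway) were compared 25 days after transplantation between allografts, placed in recipients with an incompatible major histocompatibility complex (MHC), and isografts, placed in MHC-compatible recipients. Each group was represented by 5 Affymetrix arrays of tracheal tissue RNA, 10 of the 35 arrays of the series. The other 25 arrays were untransplanted (native) tracheas and allografts and isografts at days 4 and 14, with 5 arrays in each group. The labels used here give no mouse strain, age, sex, recipient treatment or scan date, and they do not say whether the 5 arrays of a group came from 5 animals. Every non-control probe set with a log2 intensity of at least 5 in at least 5 of the 10 day 25 arrays was taken, which gave 12076 of 22626 probe sets. The annotation gave 1 gene for 11065 of them, more than 1 for 446 and none for 565, and together they covered 7505 of the 12393 genes of the array. The level of 5 was reached in all 10 arrays by 9762 probe sets, by the 5 allografts and no isograft in 43, and by the 5 isografts and no allograft in 162. Those just inside the limit (exactly 5 arrays, 457 probe sets) had a median level of 5.11, and those just outside it (4 arrays, 357 probe sets) one of 4.90.

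A transplanted trachea in an MHC-incompatible host is attacked by recipient T cells, which recognise the foreign MHC molecules on graft cells. Interferon-gamma released in such a response acts through the transcription factors of the STAT and IRF families and raises chemokines, guanylate-binding proteins and antigen presentation genes. In this model the airway epithelium is a well known target, and the lumen can later fill with fibrous tissue, a change used as a model of obliterative bronchiolitis after lung transplantation. Because whole tissue was measured, fewer cells of a type and less RNA per cell cannot be told apart in any of the comparisons.

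The array of isograft replicate 5 stood apart from its group. Its median correlation with the other 4 isografts was 0.941, against 0.968 to 0.979 for each of those arrays with the rest of the group and 0.958 to 0.973 for the 5 allografts. Its mean level of the skin and hair follicle genes was 7.98, against 5.10 to 5.48 in the other isografts, and its thyroid and parathyroid, adipocyte, secretory and ciliated levels were the lowest of the isografts. All 5 isografts were kept, and results that rest on this array are given with and without it. The labelled tissue was matched by its markers in the isografts, where the secretory epithelium genes averaged 9.63 to 11.30 (10.91 to 11.66 in native tracheas), and in both groups by cartilage genes. The defining airway epithelial markers Scgb1a1, Foxj1, Krt5 and Epcam were between 2.95 and 4.64 in every allograft, a range called near background in what follows, because it lies under the level of 5 used as the filter.

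In one model over all 35 arrays (limma, one mean per group, Benjamini-Hochberg adjustment over the 12076 probe sets), 1756 probe sets passed an adjusted p of 0.05 at day 25. This is 14.5% of those tested, with 801 (6.63%) higher and 955 (7.91%) lower in allografts. Without isograft replicate 5 the numbers were 1743, 794 and 949. The groups of arrays did not overlap for 1195 probe sets (9.9%), of which 1047 were called. A difference of at least 2-fold was reached by 452 of the higher and 592 of the lower probe sets, and one of at least 8-fold by 52 higher and 156 lower. With each gene taken by its brightest tested probe set, 1233 of 7505 genes were called (16.4%). Of these 529 rose (7.05%) and 704 fell (9.38%), the arrays did not overlap for 832 genes (11.1%), and the median gene differed by 0.01 on the log2 scale. All differences below are allograft minus isograft on the log2 scale, and "rose" and "fell" are used of allografts relative to isografts at an adjusted p under 0.05. A difference against a value near background depends on the authors' background model and is therefore given on the log2 scale rather than as a fold.

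**Figure D1:**
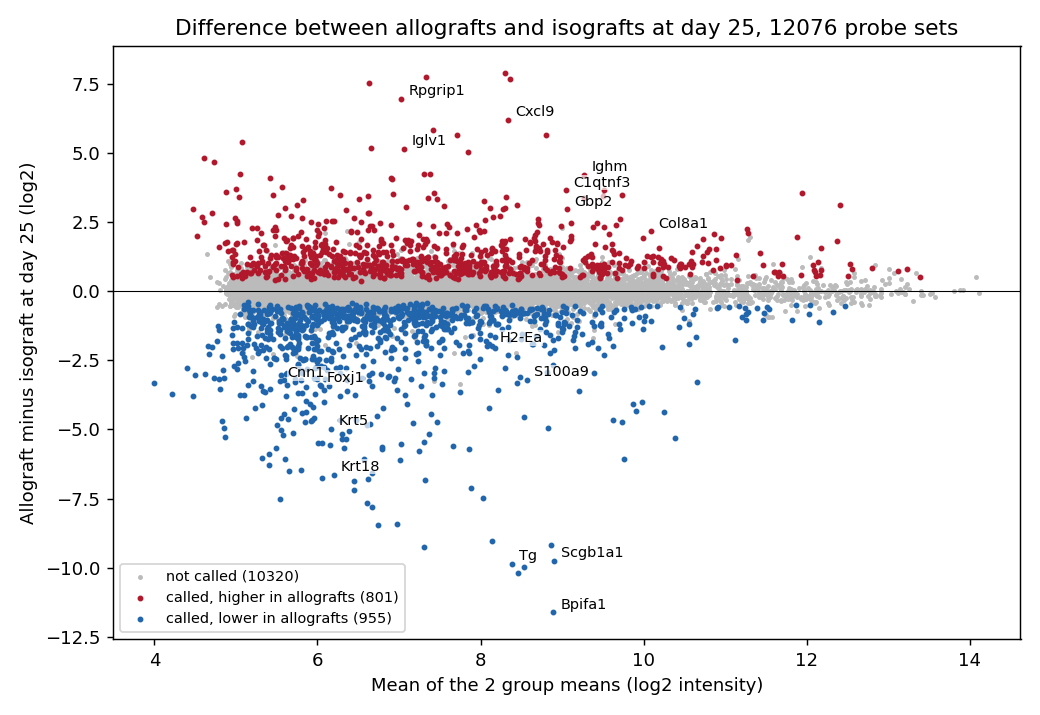
Allograft minus isograft difference at day 25 (log2) of the 12076 probe sets against the mean of both group means (log2 intensity). The 801 probe sets called higher are red, the 955 called lower are blue and the rest grey; the falls reach -11.62 (Bpifa1), and the 7 tested probe sets of Ighm rise by 3.41 to 7.77.

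Promoters of 4 genes of the interferon-gamma and MHC class II lists are shown because 17 of 20 and 7 of 8 tested genes of these lists rose at day 25, and because known control elements can be read in them. The 4 were chosen for holding a match. The sequences are the 250 bases before the transcription start in RefSeq for mouse build GRCm38.p6, read 5′ to 3′ on the strand of the gene. Gbp2 encodes a guanylate-binding protein (chr3:142620413-142620662, plus strand) and Cxcl10 a chemokine that draws activated T cells (chr5:92348890-92349139, minus strand). Irf1 encodes an interferon-induced transcription factor (chr11:53769764-53770013, plus strand, 1 of 2 listed starts) and H2-Aa the alpha chain of the class II molecule A (chr17:34287824-34288073, minus strand). Capitals mark matches to an interferon-stimulated response element type motif (GAAA, any 2 bases and GAAA, in Gbp2 and Cxcl10), to TTCNNNGAA (a gamma-activated site type, in Irf1) and to CTGATTGG (a class II Y box type, in H2-Aa). In Gbp2 the match is on the opposite strand and is read as its reverse complement. Capitals mark 1 motif in each window, and the window of Cxcl10 also holds 1 match to CTGATTGG on the opposite strand, printed in lower case.
Gbp2: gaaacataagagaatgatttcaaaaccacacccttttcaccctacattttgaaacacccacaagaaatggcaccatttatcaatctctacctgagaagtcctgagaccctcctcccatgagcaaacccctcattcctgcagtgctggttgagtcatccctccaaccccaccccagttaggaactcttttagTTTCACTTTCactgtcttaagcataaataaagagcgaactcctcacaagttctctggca
Cxcl10: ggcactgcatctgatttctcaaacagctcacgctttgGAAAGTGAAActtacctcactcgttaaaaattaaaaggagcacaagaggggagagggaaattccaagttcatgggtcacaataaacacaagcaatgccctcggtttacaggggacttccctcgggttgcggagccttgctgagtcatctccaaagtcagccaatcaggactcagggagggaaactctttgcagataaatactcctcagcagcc
Irf1: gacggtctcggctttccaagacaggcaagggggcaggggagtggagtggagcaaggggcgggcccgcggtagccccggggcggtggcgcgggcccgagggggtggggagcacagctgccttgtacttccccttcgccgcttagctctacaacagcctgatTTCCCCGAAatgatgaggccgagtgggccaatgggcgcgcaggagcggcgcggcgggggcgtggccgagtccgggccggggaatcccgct
H2-Aa: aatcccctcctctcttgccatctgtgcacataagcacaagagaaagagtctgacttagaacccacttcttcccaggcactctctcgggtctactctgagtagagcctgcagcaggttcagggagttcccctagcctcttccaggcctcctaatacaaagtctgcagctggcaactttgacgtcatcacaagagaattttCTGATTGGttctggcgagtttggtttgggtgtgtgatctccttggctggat
Searched on both strands, the response element motif was in 978 of all 32851 promoter windows of this length (2.98%) and TTCNNNGAA in 2306 (7.02%). Of the interferon-gamma list's genes that rose, 14 had promoters in the table, in 16 windows, of which 7 (43.75%) held the response element motif and 5 (31.25%) held TTCNNNGAA and 3 (18.75%) held CTGATTGG. CTGATTGG was in 1258 of all windows (3.83%) and in 2 of the 6 windows (33.33%) of the 5 class II genes that rose and had a promoter listed, where the other two motifs were in 1 window each (16.67%). The motifs share letters and can overlap, and 109 of all windows held both TTCNNNGAA and the response element motif. A match is a description of these letters only, and the lists were drawn up from known interferon and class II genes. Like all 42 gene lists, they were chosen with earlier results of these data known. The counts of rises in them are therefore not independent of these data.

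Most interferon-gamma response genes were higher in allografts. Of the list's 20 tested genes, 17 rose and none fell, against 7.05% of all genes rising, and their median difference was 1.85. Cxcl9, which encodes a chemokine that draws CXCR3-bearing T cells, had log2 intensities of 11.96, 10.98, 11.47, 11.72 and 11.06 in allografts, against 6.50, 4.98, 4.66, 5.89 and 4.14 in isografts. The lowest allograft was above the highest isograft, and the difference was 6.20 ± 0.41 (SE, adjusted p = 1.6e-13). Gbp2 had 10.86, 10.47, 10.78, 10.48 and 10.14 in allografts, against 8.50, 7.58, 7.23, 7.75 and 6.78 in isografts. It was 7.9-fold higher, with a difference of 2.98 ± 0.31 (SE, adjusted p = 5.1e-09) and no overlap. Cxcl10 and Irf1, whose promoters are printed above, averaged 9.35 ± 0.61 and 8.92 ± 0.21 in allografts, against 6.76 ± 0.90 and 7.78 ± 0.36 in isografts (SD, n = 5 each). Their differences were 2.59 ± 0.39 (SE, adjusted p = 5.0e-06) and 1.14 ± 0.18 (SE, adjusted p = 1.5e-05). Gbp8, another guanylate-binding protein, differed by 4.07 ± 0.40 (SE, adjusted p = 1.4e-09). Cd274, the ligand of the inhibitory receptor PD-1, rose by 1.89 (adjusted p = 0.0016), although isograft replicate 1, at 7.35, was above all 5 allografts. Ifng itself did not pass the filter on level and averaged 3.83 ± 0.58 in allografts and 2.98 ± 0.24 in isografts (SD, n = 5 each). Of 18 type I interferon response genes, 5 rose and none fell, among them the nucleic acid sensor Zbp1, at 1.69 (adjusted p = 8.1e-06). Without isograft replicate 1, which had the highest level of this list among the 10 arrays, 8 type I interferon genes rose.

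Most antigen presentation genes rose, and 1 fell. In the MHC class I list 10 of 13 tested genes rose and none fell. Tap1, which carries peptides into the endoplasmic reticulum, differed by 2.17 ± 0.28 (SE, adjusted p = 4.8e-07), and the immunoproteasome subunit Psmb9 by 1.87 ± 0.39 (SE, adjusted p = 0.00062). B2m, the invariant light chain of class I, had 13.23, 12.44, 13.07, 12.94 and 13.13 in allografts, against 12.46, 11.99, 12.36, 12.12 and 11.86 in isografts. The lowest allograft lay just under the highest isograft, and the difference was 0.80 ± 0.16 (SE, adjusted p = 0.0005). Of 8 tested class II genes 7 rose, including H2-Aa, with 12.001, 11.51, 12.30, 11.63 and 12.06 in allografts, against 10.28, 9.95, 10.11, 9.71 and 9.04 in isografts. H2-DMa, which helps to load class II molecules, differed by 3.11 ± 0.42 (SE, adjusted p = 6.8e-07), H2-Ab1 by 1.89 ± 0.23 (SE, adjusted p = 9.9e-08) and the invariant chain Cd74 by 1.57 ± 0.24 (SE, adjusted p = 9.8e-06). The gene that fell was H2-Ea, the alpha chain of the class II molecule E, with 7.20, 6.60, 7.19, 7.33 and 7.48 in allografts, against 9.28, 9.05, 9.84, 8.76 and 8.70 in isografts. All allografts lay below all isografts, at a difference of -1.97 ± 0.21 (SE, adjusted p = 9.2e-09). A second tested probe set of the gene differed by -5.46, and the difference of the first was already -2.03 at day 4 and -2.07 at day 14. At day 4 the second averaged 2.76 in allografts and 9.34 in isografts. Mouse strains are not named in the labels, and whether H2-Ea differs by strain rather than by response was not tested.

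Cytotoxic lymphocyte genes were higher in allografts. All 7 tested genes of the cytotoxic and NK cell list rose, and the other 14 of its 21 genes on the array were below the filter on level, so these 7 are not the whole list. Some of the 7 passed the filter through the allografts alone. Gzmb, the granule protease granzyme B, had 7.54, 7.37, 7.41, 7.26 and 7.83 in allografts, against 4.97, 3.96, 3.79, 3.85 and 4.25 in isografts, a difference of 3.32 ± 0.28 (SE, adjusted p = 4.4e-11). Klrd1, an NK receptor subunit, had 6.87, 7.08, 7.67, 7.53 and 6.84 in allografts, against 4.21, 3.90, 3.25, 3.86 and 3.31 in isografts, a difference of 3.49 ± 0.27 (SE, adjusted p = 6.7e-12). No allograft overlapped an isograft for Gzmb or Klrd1. Nkg7, a cytotoxic granule membrane protein, differed by 3.14 ± 0.30 (SE, adjusted p = 5.5e-10), and the chemokine Ccl5 by 3.03 ± 0.38 (SE, adjusted p = 1.9e-07). Among the genes below the filter, the activating receptor Klrk1 averaged 5.86 ± 0.54 in allografts and 3.56 ± 0.31 in isografts, and the death ligand Fasl 4.80 ± 0.35 in allografts and 2.73 ± 0.48 in isografts. Klrk1 and Fasl were chosen after their values were seen and do not stand for the other genes below the filter. The median difference was 3.03 over the 7 tested genes and 1.07 over all 21.

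In the T cell receptor and coreceptor list 7 of 14 tested genes rose and none fell (5 without isograft replicate 5), with a median of 0.86. The signalling chains of the receptor complex Cd3d and Cd3g both differed by 1.85, at adjusted p of 0.0056 and 0.00092. Cd3e had 5.26, 5.42, 5.41, 6.21 and 5.99 in allografts, against 4.64, 5.198, 4.78, 4.49 and 4.40 in isografts. The groups did not overlap, but the gap was small, and the difference of 0.96 ± 0.28 (SE, adjusted p = 0.015) was lost without allograft replicate 4 (adjusted p = 0.056) and when arrays were centred on scaling reference genes (adjusted p = 0.060), where the T cell list had 4 rises. Cd28, the costimulatory receptor of T cells, rose by 1.66 (adjusted p = 0.0013). Cd8a, a coreceptor of cytotoxic T cells, had 5.58, 5.14, 5.70, 5.88 and 5.27 in allografts, against 5.08, 5.65, 5.37, 4.76 and 4.72 in isografts. These values overlapped widely, and the difference of 0.40 ± 0.31 (SE, adjusted p = 0.47) did not pass the test. Cd8b1, the other chain of this coreceptor, was among the 7 genes that rose. Foxp3, which defines regulatory T cells, was below the filter at 3.04 ± 0.38 in allografts and 2.65 ± 0.13 in isografts.

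Immunoglobulin genes were among the largest rises. In the B cell and plasma cell list 5 of 11 tested genes rose and 1, Sdc1, which airway epithelium also expresses, fell. The other 7 of its 18 genes on the array were below the filter. The median difference was 0.84 over the 11 tested genes and 0.39 over all 18, so the 11 do not stand for the whole list. Ighm, the heavy chain of IgM, had 11.32, 11.38, 11.15, 12.11 and 10.94 in allografts, against 8.78, 7.75, 7.42, 7.59 and 4.27 in isografts. All allografts were above all isografts, at a difference of 4.21 ± 0.76 (SE, adjusted p = 9.4e-05), and isograft replicate 5 was far below its group. All 7 tested probe sets of Ighm rose, by 3.41 to 7.77. Iglv1, a lambda light chain segment, had 8.77, 9.82, 9.49, 8.95 and 11.16 in allografts, against 5.80, 6.23, 3.40, 4.44 and 2.52 in isografts, a difference of 5.16 ± 0.59 (SE, adjusted p = 3.7e-08). Ighg3, the heavy chain of IgG3, differed by 3.39 ± 0.47 (SE, adjusted p = 1.1e-06), although a second tested probe set of that gene did not pass, at 0.23. Immunoglobulin probe sets share sequence with related segments and may not be told apart by the array. Pou2af1, a transcriptional coactivator of B cells, rose by 2.71 (adjusted p = 5.1e-05). Jchain, which joins IgM and IgA chains, had 10.86, 10.14, 11.14, 11.38 and 11.53 in allografts, against 9.93, 9.63, 9.52, 8.68 and 4.23 in isografts. The difference of 2.61 ± 0.72 (SE, adjusted p = 0.0097) includes isograft replicate 5, the lowest of the 10 arrays by a wide margin, and was 1.57 without that array (adjusted p = 0.043). The call was lost when the 10 day 25 arrays were fitted alone (adjusted p = 0.105), where 3 genes of the list rose.

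Many macrophage genes were higher. Of the macrophage and monocyte list 11 of 20 tested genes rose and 1, the endotoxin coreceptor Cd14, fell. Adgre1, a surface marker of mouse macrophages, had 9.69, 9.13, 10.63, 9.57 and 10.56 in allografts, against 7.89, 6.89, 7.68, 7.33 and 7.82 in isografts. The groups were apart at a difference of 2.40 ± 0.23 (SE, adjusted p = 6.3e-10), and the change of the difference since day 14 was 1.54 ± 0.32 (SE, adjusted p = 0.0078). Fcgr4, an activating receptor for IgG, had 8.54, 7.57, 8.45, 7.57 and 8.75 in allografts, against 6.70, 4.73, 4.31, 3.98 and 4.49 in isografts, a difference of 3.33 ± 0.41 (SE, adjusted p = 1.5e-07). Aif1, a cytoskeletal protein of macrophages, differed by 2.68 ± 0.34 (SE, adjusted p = 2.2e-07), and C1qb, a subunit of complement C1q made by macrophages, by 2.25 ± 0.25 (SE, adjusted p = 1.4e-08). Cd68, a lysosomal marker of macrophages, had 8.78, 9.43, 9.88, 9.20 and 10.47 in allografts, against 9.89, 7.90, 9.13, 8.40 and 8.55 in isografts. Isograft replicate 1 overlapped the allografts, and the difference of 0.77 ± 0.33 (SE, adjusted p = 0.13) passed the test only without that array or with array weights, among the settings tried (adjusted p = 0.023 and 0.017). Of 10 dendritic cell and costimulation genes 6 rose (4 without allograft replicate 5, 5 to 7 without any other array, and 2 when the 10 day 25 arrays were fitted alone), with Cd86, a costimulatory ligand, at 2.70 (adjusted p = 5.1e-09) and Batf3, a transcription factor of cross-presenting dendritic cells, at 1.27 (adjusted p = 0.00023). Batf3 did not pass on the 10 arrays alone (adjusted p = 0.055). Among alternative activation genes 5 of 9 rose (3 on the 10 arrays alone), including the mannose receptor Mrc1, at 1.42 (adjusted p = 0.00024), and the alarmin Il33, at 1.99 (adjusted p = 5.2e-05). The other 8 of the 17 genes of this list on the array were below the filter. The median difference was 0.96 over the 9 tested genes and 0.06 over all 17, so the 9 do not stand for the whole list. In the complement list 6 of 12 rose and 1, the regulator Cd55, fell. The inflammatory caspase Casp1, the pro-apoptotic Bid and the necroptosis kinase Ripk3 were the 3 of 17 cell death genes that rose, at 1.39 (adjusted p = 0.00012), 1.34 (adjusted p = 0.0005) and 1.15 (adjusted p = 0.0092). The call of Ripk3 was lost without isograft replicate 2 (0.82, adjusted p = 0.058) and on the 10 arrays alone (adjusted p = 0.137).

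Some neutrophil-associated genes were lower in allografts. Of 11 tested, 4 fell, none rose and 7 did not pass, and Ltf and Lcn2, which are among the 4, are also products of airway epithelium. The list's median was -0.18, and it was 0.18 without isograft replicate 1 and between -0.45 and -0.04 without any other array. S100a9, a calcium-binding protein abundant in neutrophils, had 7.15, 8.91, 5.41, 6.62 and 6.76 in allografts, against 13.00, 8.66, 9.02, 9.96 and 10.21 in isografts. Isograft replicate 1 was the highest, as for the level of the whole neutrophil list (9.64), and allograft replicate 2 overlapped the lowest isograft. The difference was -3.20 ± 0.62 (SE, adjusted p = 0.00024), and its change since day 14 was -3.84 ± 0.87 (SE, adjusted p = 0.017). S100a8, its partner, had 6.45, 9.04, 6.41, 7.31 and 7.04 in allografts, against 12.49, 8.73, 8.42, 9.85 and 8.68 in isografts, a difference of -2.38 ± 0.66 (SE, adjusted p = 0.01) that was lost without isograft replicate 1 (adjusted p = 0.056) and on the 10 arrays alone (adjusted p = 0.071). Cxcl2, a neutrophil-attracting chemokine, fell, at -2.52 (adjusted p = 0.016) and was likewise lost without that array (adjusted p = 0.086). Ptx3, an acute-phase pattern recognition protein, rose by 3.33 (adjusted p = 2.4e-05). Of 29 chemokines and receptors 10 rose and 3 fell, and besides Cxcl2 the falls were the epithelial chemokines Cxcl15, at -5.33 (adjusted p = 7.2e-13), and Cxcl17, at -6.12 (adjusted p = 1.5e-11). Hdc, the histamine-forming enzyme, was the only one of 5 tested mast cell genes to fall, at -4.58 (adjusted p = 4.6e-09).

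**Figure D2:**
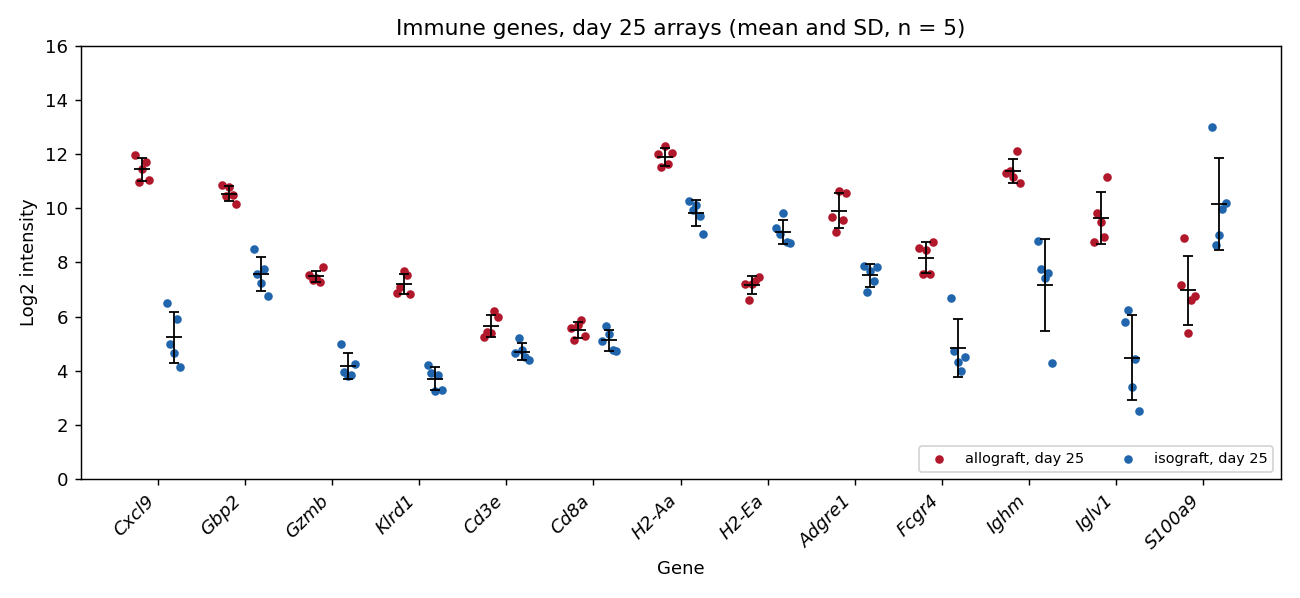
Log2 intensity of 13 immune genes in each day 25 array, allografts in red to the left of isografts in blue; bars are the mean and SD (n = 5 arrays per group). Allografts lie above isografts without overlap for Cxcl9, Gbp2, Gzmb, Klrd1, Cd3e, H2-Aa, Adgre1, Fcgr4, Ighm and Iglv1, below them without overlap for H2-Ea, and overlap them for Cd8a and S100a9.

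Airway epithelial genes fell, many of them to near background. Of 21 tested general epithelium genes 19 fell and none rose, against 9.38% of all genes falling, with a median of -4.35. In the secretory and gland list 20 of 22 fell, with a median of -5.71 (-6.30 without isograft replicate 5). All 7 tested ciliated genes, 9 of 13 basal and squamous genes and 9 of 12 ion and water transport genes fell, and none of these rose. Some of these genes passed the filter on level through the isografts alone, so the counts of tested genes favour falls. Below the filter were 7 general, 5 secretory, 6 ciliated, 15 basal and squamous and 12 transport genes.

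Among secreted products, Bpifa1, an antimicrobial surface protein of the upper airway, had 3.15, 2.91, 3.10, 2.89 and 3.37 in allografts, against 14.60, 14.95, 14.94, 14.79 and 14.24 in isografts. All allografts lay near background and all isografts near the top of the scale, and the difference was -11.62 ± 0.42 (SE, adjusted p = 8.0e-20). Scgb1a1, the club cell secretoglobin, had 4.30, 3.91, 3.85, 4.33 and 3.72 in allografts, against 14.21, 14.65, 14.18, 14.38 and 11.49 in isografts. Here isograft replicate 5 was lowest of its group, and the difference was -9.76 ± 0.53 (SE, adjusted p = 1.8e-15). The related secretoglobins Scgb3a1 and Scgb3a2 differed by -10.20 ± 0.50 (SE, adjusted p = 2.6e-16) and -9.20 ± 0.56 (SE, adjusted p = 2.5e-14). Ltf, the iron-binding gland protein lactoferrin, had 3.98, 5.51, 2.92, 2.66 and 2.68 in allografts, against 13.31, 13.41, 13.88, 13.83 and 13.15 in isografts, a difference of -9.96 ± 0.53 (SE, adjusted p = 1.2e-15). The antimicrobial lectin Reg3g, the mucosal scavenger protein Dmbt1 and the protease inhibitor family member Wfdc2 differed by -9.04, -8.41 and -8.45. Pigr, which carries IgA and IgM across epithelium, had 2.71, 2.46, 2.61, 2.57 and 3.54 in allografts, against 11.26, 11.25, 10.33, 10.71 and 8.62 in isografts, a difference of -7.66 ± 0.49 (SE, adjusted p = 6.6e-14).

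Genes of epithelial structure and of the other airway cell types fell as well. Foxa1, a transcription factor of airway epithelium, had 2.98, 2.96, 3.18, 2.95 and 3.01 in allografts, against 9.90, 10.04, 9.90, 10.15 and 9.36 in isografts. The 5 allografts were nearly alike, and the difference was -6.85 ± 0.38 (SE, adjusted p = 2.9e-15). Krt18, a keratin of simple epithelium, had 3.28, 2.60, 2.61, 2.58 and 3.35 in allografts, against 8.79, 9.58, 10.03, 9.64 and 9.54 in isografts, a difference of -6.63 ± 0.35 (SE, adjusted p = 1.2e-15). Epcam, an epithelial adhesion molecule, differed by -6.06 ± 0.47 (SE, adjusted p = 5.4e-12) and the desmosomal protein Dsp by -6.74 ± 0.58 (SE, adjusted p = 6.7e-11). In multiciliated cells, the master transcription factor Foxj1 had 4.64, 4.40, 4.24, 4.12 and 4.24 in allografts, against 7.64, 8.03, 8.09, 8.20 and 6.68 in isografts. The groups were apart at a difference of -3.40 ± 0.45 (SE, adjusted p = 5.6e-07), with the axonemal protein Rsph1 at -3.18 and Tppp3, a tubulin-binding protein, at -3.15. Krt5, a keratin of basal cells, the progenitors of this epithelium, had 4.01, 2.95, 4.33, 3.49 and 3.63 in allografts, against 7.09, 7.63, 8.89, 8.36 and 11.34 in isografts. Isograft replicate 5 was highest here, and the difference was -4.98 ± 0.59 (SE, adjusted p = 5.9e-08). The basal cell transcription factor Trp63 differed by -3.76 ± 0.33 (SE, adjusted p = 8.9e-11) and the basal keratin Krt15 by -5.69 ± 0.61 (SE, adjusted p = 1.0e-08). Among transport genes the water channels Aqp4 and Aqp5 and the sodium pump subunit Atp1b1 differed by -5.47, -4.22 and -4.96, each with an adjusted p of at most 2.3e-09. Allograft replicate 1 was the highest allograft for Aqp4 and Atp1b1, at 5.49 and 9.16. In the xenobiotic and retinoid metabolism list 15 of 32 fell and 1, Cyp1b1, rose, with the club cell enzyme Cyp2f2 at -5.31 (adjusted p = 6.4e-07) and the glutathione transferase Gsta4 at -5.60 (adjusted p = 4.1e-08).

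**Figure D3:**
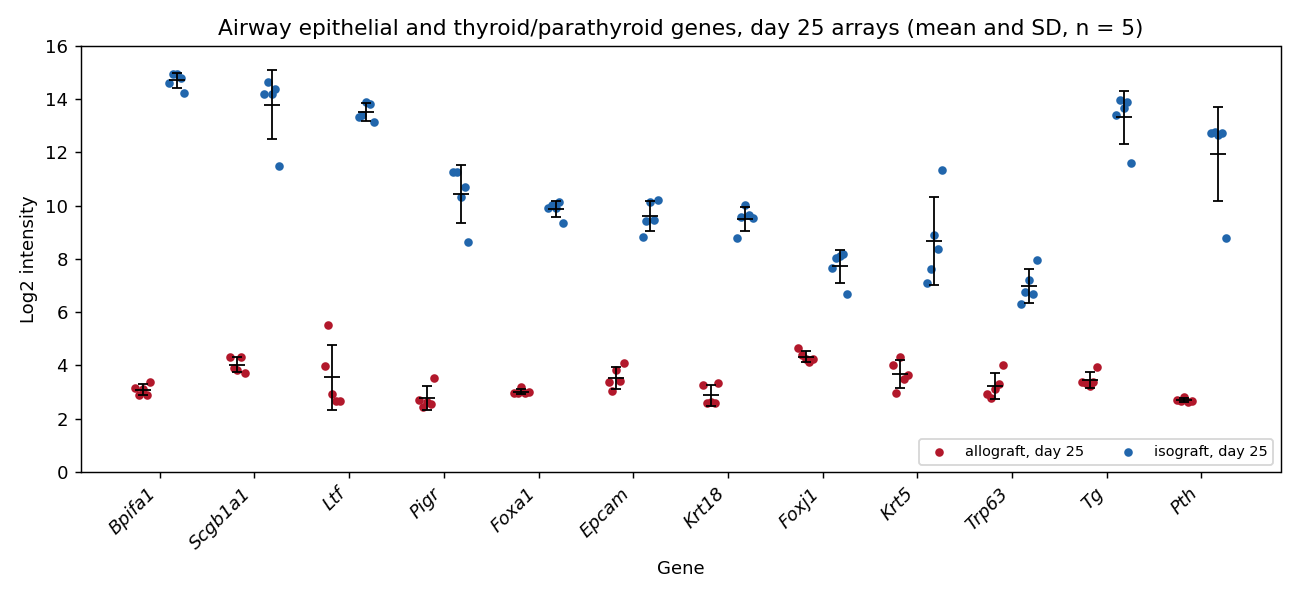
Log2 intensity of 10 airway epithelial genes and of Tg and Pth in each day 25 array, allografts in red to the left of isografts in blue; bars are the mean and SD (n = 5 arrays per group). No allograft overlaps an isograft for any of the 12 genes. Isograft replicate 5 is the lowest isograft for Bpifa1, Scgb1a1, Ltf, Pigr, Foxa1, Foxj1, Tg and Pth but the highest for Krt5 and Trp63.

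Genes of glands that lie next to the trachea also fell. Of 5 tested markers of thyroid and parathyroid 4 fell, against 9.38% of all genes falling. The other 4 of the 9 on the array were below the filter. The median difference was -4.09 over the 5 tested genes and -1.02 over all 9. Tg and Pth passed the filter through the isografts alone, which favours falls among the genes tested. Tg, thyroglobulin, had 3.37, 3.35, 3.24, 3.36 and 3.96 in allografts, against 13.42, 13.97, 13.68, 13.90 and 11.60 in isografts, a difference of -9.86 ± 0.55 (SE, adjusted p = 2.9e-15). Pth, parathyroid hormone, had 2.69, 2.66, 2.81, 2.64 and 2.66 in allografts, against 12.71, 12.78, 12.66, 12.72 and 8.79 in isografts, a difference of -9.24 ± 0.85 (SE, adjusted p = 3.3e-10). Both were near background in every allograft and lowest among isografts in replicate 5, and Iyd, the iodide-recycling enzyme of thyroid, fell, at -4.09 (adjusted p = 4.1e-08). The level of the thyroid and parathyroid list was 4.02 to 4.33 in allografts and 7.39 to 10.04 in isografts, against a native mean of 10.66. These markers moved with the groups, and their part in the other falls was not tested. Skeletal muscle genes varied within both groups, with list levels of 11.56, 4.52, 3.94, 5.62 and 7.21 in allografts, against 6.99, 9.23, 6.19, 6.27 and 8.68 in isografts. None of 20 tested muscle genes, none of 16 adipocyte genes and none of 3 skin genes was called with limma, and at an unadjusted p under 0.05 the numbers were 2, 2 and 0. Ckm, the creatine kinase of muscle, ranged between 4.91 and 12.57 in allografts and between 6.27 and 10.99 in isografts. Krt10, a skin keratin, differed by -0.44 ± 0.31 (SE, adjusted p = 0.42).

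Many matrix genes were higher. In the list of fibrillar and associated collagens and fibrosis genes 20 of 42 rose and none fell, with a median of 0.59. Col8a1, a short-chain collagen of vessels and wounds, had 10.95, 11.03, 11.55, 11.53 and 10.80 in allografts, against 7.91, 8.88, 8.94, 9.52 and 9.77 in isografts. All allografts were above all isografts, the difference was 2.17 ± 0.30 (SE, adjusted p = 1.7e-06), and its change since day 14 was 2.38 ± 0.43 (SE, adjusted p = 0.0015). Postn, the matricellular protein periostin, had 12.90, 13.52, 13.75, 13.02 and 13.24 in allografts, against 11.09, 10.56, 11.70, 11.35 and 12.59 in isografts, a difference of 1.83 ± 0.30 (SE, adjusted p = 2.1e-05), again without overlap. Thbs1, a thrombospondin that can activate latent TGF-beta, had 9.61, 9.48, 10.59, 8.54 and 9.73 in allografts, against 6.89, 6.74, 8.25, 6.87 and 9.99 in isografts. Isograft replicate 5 overlapped the allografts, and the difference of 1.84 ± 0.59 (SE, adjusted p = 0.031) was lost without any 1 of 6 other arrays (adjusted p from 0.051 to 0.10). Fibronectin, Fn1, rose by 0.96 (adjusted p = 0.0075), a call lost on the 10 arrays alone (adjusted p = 0.060). Col1a1 and Col3a1, the main fibrillar collagens, had differences of 0.81 ± 0.31 (SE, adjusted p = 0.083) and 0.52 ± 0.19 (SE, adjusted p = 0.064), which did not pass, and both passed without isograft replicate 5, at 1.08 and 0.68 (adjusted p = 0.012 and 0.0080). The 2 tested probe sets of Col1a1 disagreed in sign, at 0.81 and -0.77, and neither was called. In that list the count of 20 was 25 without isograft replicate 5, 11 without allograft replicate 3 or without isograft replicate 4, 12 without isograft replicate 2, 13 when arrays were centred on scaling reference genes, and 10 when the 10 day 25 arrays were fitted alone.

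Among secreted genes of stroma outside that list, C1qtnf3, an adipokine-like protein also made by chondrocytes, had 10.75, 10.62, 11.19, 10.91 and 10.94 in allografts, against 6.96, 6.48, 6.85, 6.92 and 8.88 in isografts, a difference of 3.67 ± 0.39 (SE, adjusted p = 8.1e-09). Ccn3, a matricellular protein, had 11.33, 11.91, 12.05, 10.95 and 11.14 in allografts, against 8.02, 8.09, 7.89, 7.82 and 8.09 in isografts. The isografts were nearly alike, the difference was 3.49 ± 0.33 (SE, adjusted p = 4.9e-10), and its change since day 14 was 1.91 ± 0.47 (SE, adjusted p = 0.033). Egfl6, an epidermal growth factor-like matrix protein, had 7.71, 8.97, 9.30, 9.03 and 6.76 in allografts, against 4.73, 5.31, 4.55, 4.98 and 4.89 in isografts, a difference of 3.46 ± 0.38 (SE, adjusted p = 1.2e-08), and a change since day 14 of 3.83 ± 0.53 (SE, adjusted p = 3.9e-05). Of 23 matrix proteases and inhibitors 4 rose and 2 fell, against 7.05% of all genes rising and 9.38% falling. The 2 falls were near the share of all genes. The protease inhibitor Timp1 and the collagenase Mmp13 rose by 1.62 (adjusted p = 0.024) and 1.74 (adjusted p = 0.029), and each call was lost without any of several single arrays, so that the count of 4 was 0 or 1 without allograft replicate 3, 4 or 5 or isograft replicate 2 or 4, and 0 on the 10 arrays alone. Mmp12, the macrophage elastase, differed by 0.40 ± 0.45 (SE, adjusted p = 0.65) and did not pass. The lysosomal proteases Ctsc and Ctsl moved in opposite directions, at 1.54 (adjusted p = 1.1e-05) and -1.099 (adjusted p = 0.0011), in a lysosomal list where 3 of 25 rose and 1 fell (1 and 0 on the 10 arrays alone, where Ctsl had an adjusted p of 0.064).

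In the growth factor list 4 of 41 rose and 10 fell, against 7.05% of all genes rising and 9.38% falling. The rises were near the share of all genes. Igfbp5 and Igfbp2, which bind insulin-like growth factors, fell, at -2.0 (adjusted p = 5.3e-06) and -2.97 (adjusted p = 0.00046), and a second tested probe set of Igfbp5 did not pass, at -0.14. The neuregulin receptor Erbb3, found in epithelium and Schwann cells, fell, at -3.98 (adjusted p = 1.2e-11). Tgfb1, a cytokine that drives matrix synthesis, had 6.57, 7.14, 7.40, 8.31 and 9.17 in allografts, against 7.63, 7.08, 7.66, 6.75 and 8.18 in isografts. The groups overlapped, the difference was 0.26 ± 0.39 (SE, adjusted p = 0.75), and it changed sign without allograft replicate 5. The number of falls in this list was 16 when arrays were centred on the scaling reference genes, and the number of rises was then 2 and was also 2 without allograft replicate 4. Of 15 basement membrane genes 1 rose (none without any 1 of 6 arrays) and 3 fell, among them the proteoglycan Agrn, at -1.11 (adjusted p = 0.00013), and the collagen chain Col4a5, at -2.09 (adjusted p = 5.2e-06). The 1 rise was also near the share of all genes.

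Several contractile smooth muscle genes fell. Of 18 tested 8 fell and 1, Cald1, rose, with a median of -0.92. Cnn1, calponin, had 4.00, 4.00, 3.92, 3.70 and 3.99 in allografts, against 6.72, 7.53, 6.89, 8.36 and 6.35 in isografts, a difference of -3.25 ± 0.52 (SE, adjusted p = 1.7e-05). Acta2, the smooth muscle actin that myofibroblasts also express, had 9.54, 9.45, 10.19, 9.08 and 10.66 in allografts, against 11.19, 11.22, 10.65, 11.49 and 10.82 in isografts. The highest allograft and the lowest isograft met, the difference was -1.29 ± 0.23 (SE, adjusted p = 6.1e-05), and its change since day 14 was -1.60 ± 0.32 (SE, adjusted p = 0.0047). The smooth muscle myosin Myh11 and the visceral actin Actg2 fell, at -2.53 (adjusted p = 0.0011) and -2.10 (adjusted p = 0.00059). Endothelial genes had 6 falls and no rise among 25, against 9.38% of all genes falling. Without isograft replicate 5 or on the 10 arrays alone they had 3 falls. The lymphatic markers Lyve1 and Flt4 fell, at -2.69 (adjusted p = 9.3e-05) and -0.91 (adjusted p = 0.0034), whereas the general endothelial marker Pecam1 differed by 0.61 ± 0.67 (SE, adjusted p = 0.64) and did not pass.

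The difference between the groups in cartilage, cell cycle and epithelial genes had changed since day 14. The change of the difference from day 14 to day 25, tested as an interaction term in the same model, was called for 129 probe sets (1.07%), 60 upward (0.497%) and 69 downward (0.571%). At gene level it was called for 92 genes (1.23%), 39 upward (0.52%) and 53 downward (0.706%). It shares the day 25 arrays with the differences given above. At day 25, 1 of 25 tested cartilage genes rose and 1 fell, against 7.05% of all genes rising and 9.38% falling. The number of rises was 2 without isograft replicate 5, 4 when the 10 day 25 arrays were fitted alone, 4 with the replicate number as a block, and 0 without any of 8 other single arrays or when arrays were centred on scaling reference genes. The list's median was 0.82, against -1.83 at day 14 and 0.17 at day 4. The change was upward in 12 of the 25 and downward in none. Col2a1, the main collagen of hyaline cartilage, had 12.35, 11.72, 11.90, 12.32 and 12.08 in allografts, against 9.79, 10.66, 10.94, 11.33 and 12.68 in isografts at day 25. Isograft replicate 5 was the highest of all 10 arrays, the difference was 0.99 ± 0.56 (SE, adjusted p = 0.28), and its change since day 14 was 3.17 ± 0.79 (SE, adjusted p = 0.039). Chad, the cartilage matrix protein chondroadherin, had 12.30, 10.71, 11.19, 12.38 and 11.24 in allografts, against 10.62, 11.73, 11.54, 11.99 and 10.52 in isografts. These values overlapped fully at a difference of 0.28 ± 0.48 (SE, adjusted p = 0.77), whereas the change since day 14 was 4.11 ± 0.67 (SE, adjusted p = 0.00042). The chondrocyte-secreted protein Mia, the matrix protein Matn4 and the collagen chain Col9a1 changed by 4.55, 4.23 and 4.42 (adjusted p = 0.0035, 0.00041 and 0.0082). For Matn4 the day 25 difference alone was 1.36 ± 0.49 (SE, adjusted p = 0.058), which did not pass but did in 6 of the other settings, among them without isograft replicate 5 (1.73, adjusted p = 0.011), without allograft replicate 1 (1.55, adjusted p = 0.039) and with a replicate block (adjusted p = 0.020).

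Outside the cartilage list the largest upward changes since day 14 included the opioid precursor Penk, by 5.12 ± 0.63 (SE, adjusted p = 1.0e-05), and Otor, a secreted protein related to Mia, by 4.88 ± 0.76 (SE, adjusted p = 0.00023). Col11a1, a minor fibrillar collagen of cartilage, was the 1 cartilage gene that rose at day 25, by 1.46 (adjusted p = 0.048), a call that was lost without any single array other than isograft replicate 5. Epyc, a small proteoglycan, was the 1 that fell, at -1.47 (adjusted p = 8.4e-05). The count of 12 upward changes was 6 without isograft replicate 1, whose cartilage level of 7.295 was the lowest of the 10 arrays, and 8 to 12 without any other array.

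None of 25 tested cell cycle genes rose at day 25, and 1, the cyclin Ccnd1, fell, at -0.89 (adjusted p = 0.0014), while its 2 other tested probe sets did not pass, at -0.44 and 0.29. The list's median was 0.17 at day 25 and 1.35 at day 14, and the change was downward in 7 genes. Mki67, the proliferation marker, had 6.26, 6.34, 7.43, 6.56 and 7.62 in allografts, against 6.43, 6.99, 6.78, 5.72 and 7.47 in isografts. The groups overlapped fully at a difference of 0.17 ± 0.41 (SE, adjusted p = 0.86), and the change since day 14 was -2.37 ± 0.59 (SE, adjusted p = 0.035). The count of 7 ran from 3 to 11 when single arrays were left out, with 3 without allograft replicate 1 or 2 or isograft replicate 5, 4 without isograft replicate 2, and 11 without allograft replicate 5. In the epithelial lists, 9 general and 8 secretory genes had a lower difference than at day 14. Krt7, a keratin of simple epithelium, differed by 0.54 at day 14 and -4.41 at day 25, a change of -4.95 ± 0.75 (SE, adjusted p = 0.00016). Krt19, a keratin of simple and basal epithelium, changed by -5.38 ± 0.85 (SE, adjusted p = 0.00027) and Krt5 by -4.44 ± 0.83 (SE, adjusted p = 0.0023). The count of 8 secretory genes was 4 or 5 without any 1 of the arrays other than allograft replicate 5 (6) and isograft replicate 5 (8), and the count of 9 general genes was 9 or 10.

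**Figure D4:**
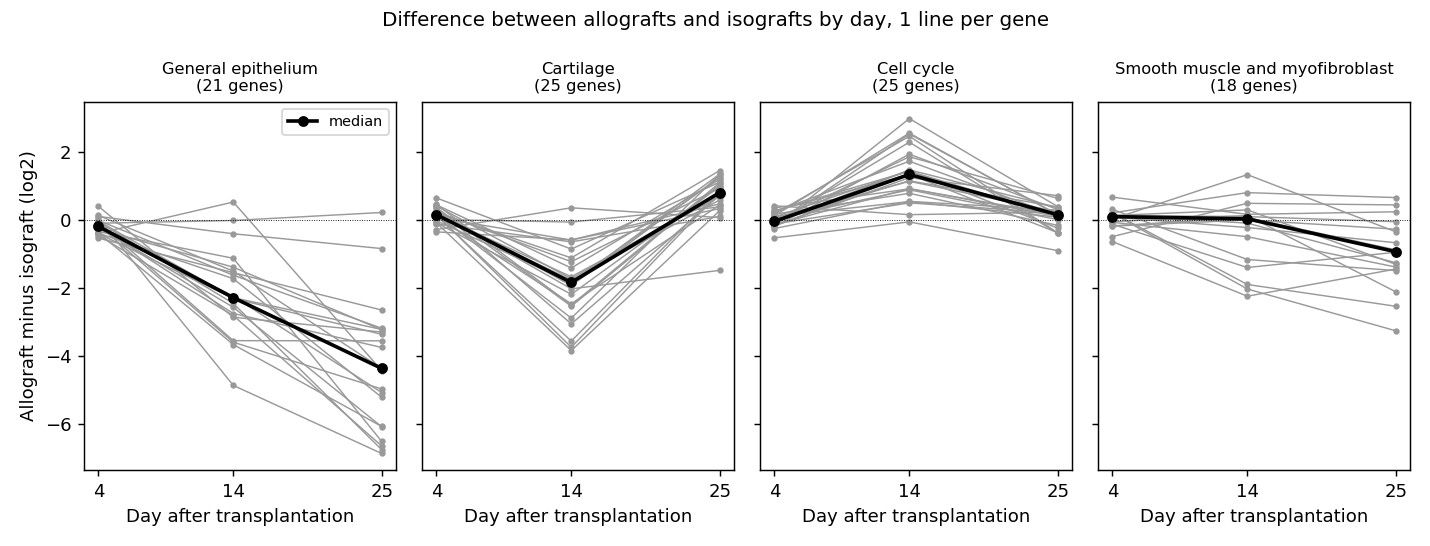
Allograft minus isograft difference (log2) at days 4, 14 and 25 for the tested genes of 4 lists, a grey line for each gene and the list's median in black. The panels run from general epithelium through cartilage and cell cycle to smooth muscle. The median of the cartilage list is -1.83 at day 14 and 0.82 at day 25, that of the cell cycle list 1.35 and 0.17, that of the general epithelium list -2.27 and -4.35, and that of the smooth muscle list 0.04 and -0.92.

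Against day 4 the difference had changed for 621 probe sets (5.14%), 154 upward (1.28%) and 467 downward (3.87%), and for 447 genes (5.96%), 93 upward (1.24%) and 354 downward (4.72%). The day 4 comparison itself called 74 of the same 12076 probe sets (0.613%), 62 higher (0.513%) and 12 lower (0.0994%), and at gene level 41 (0.546%), 36 higher (0.48%) and 5 lower (0.0666%). The day 14 comparison called 2192 (18.2%), 1217 higher (10.1%) and 975 lower (8.07%), and at gene level 1549 (20.6%), 805 higher (10.7%) and 744 lower (9.91%). Of the epithelial genes, 19 of 21 general, 19 of 22 secretory and 5 of 7 ciliated genes had a lower difference at day 25 than at day 4. Scgb1a1 differed by 0.18 at day 4, and the change was -9.94 ± 0.75 (SE, adjusted p = 3.0e-11). Cxcl9 differed by 5.10 at day 4, and its change of 1.103 ± 0.58 (SE, adjusted p = 0.39) did not pass. Gzmb differed by 0.92 at day 4 and changed by 2.40 ± 0.40 (SE, adjusted p = 7.9e-05), and Iglv1 changed by 5.31 ± 0.84 (SE, adjusted p = 3.9e-05).

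Few genes of the metabolic lists were called at day 25, when 7.05% of all genes rose and 9.38% fell. None of 47 oxidative phosphorylation genes was called with limma (2 at an unadjusted p under 0.05). In the same arrays 2 of 26 hypoxia and glycolysis genes rose, with the pyruvate dehydrogenase kinase Pdk1 at 1.60 (adjusted p = 8.1e-06), and 1 of 20 sterol and fatty acid synthesis genes fell. When arrays were centred on the scaling reference genes, 5 hypoxia and glycolysis genes and 4 sterol genes fell. Of 2 further lists, 1 of 8 Schwann cell and nerve genes rose and 3 fell, and 2 of 4 checkpoint and regulatory T cell genes rose, while the acute inflammation list had 4 rises and 2 falls among 18.

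**Figure D5:**
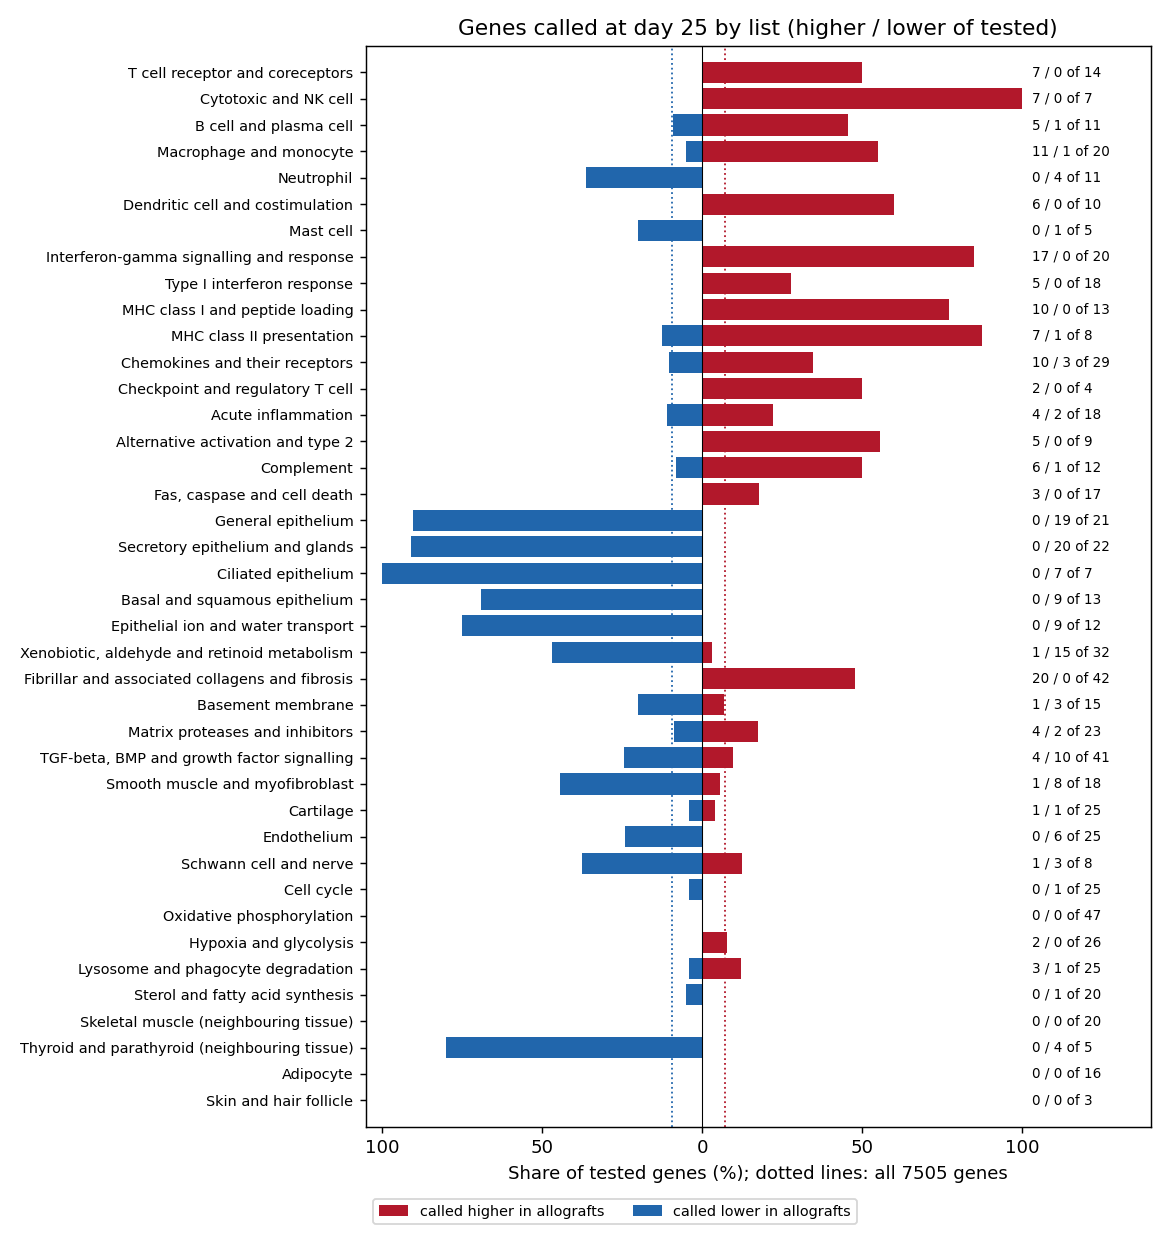
Share of the tested genes of each list called higher (red, to the right of 0) or lower (blue, to the left of 0) in allografts at day 25, with the counts at the right margin as higher / lower of tested. The dotted lines mark the shares among all 7505 genes, 7.05% higher and 9.38% lower; the interferon-gamma list reaches 17 of 20 higher and the general epithelium list 19 of 21 lower.

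Some of the largest rises were seen by a single probe set. Rpgrip1, a cilium protein best known in photoreceptors, had 10.66, 11.01, 10.74, 10.14 and 10.02 in allografts, against 3.19, 4.73, 2.98, 4.48 and 2.29 in isografts, a difference of 6.98 ± 0.43 (SE, adjusted p = 3.6e-14). Its 3 other probe sets were below the filter, at 2.72 to 3.97 in allografts and 2.60 to 3.80 in isografts. Trim34a, a TRIM family protein, had 7.56, 7.44, 7.76, 7.57 and 6.999 in allografts, against 3.88, 4.18, 2.89, 2.90 and 3.02 in isografts, while its other probe set was at 4.42 to 5.03 in allografts and 4.16 to 5.17 in isografts. Both differences were present at day 4, at 5.77 and 2.78. Arl2bp, a binding partner of a small GTPase, differed by 3.50 ± 0.33 (SE, adjusted p = 3.6e-10), its other probe set by 1.74, and Slamf8, a receptor of myeloid cells, by 3.79 ± 0.34 (SE, adjusted p = 1.3e-10). The tested probe sets of Rpgrip1, Trim34a and Slamf8 were under the level of 5 in every isograft. They passed the filter through the allografts alone, which favours rises among the genes tested.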

How the data were processed

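RNA of mouse tracheal tissue was hybridised as biotinylated cRNA to 1-colour Affymetrix arrays, per the labels' protocols. The deposited log2 intensities had been background-corrected, normalised and summarised per probe set by the authors with GCRMA 1.1.3, per the submitters' processing notes. GCRMA pulls dim probe sets to a common low level, so differences against such levels depend on its background model. The values, which range between 0.317 and 15.53, were used without further scaling.

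Of 22690 probe sets 64 controls were removed, and a log2 level of at least 5 in at least 5 of the 10 day 25 arrays was required. Linear models were fitted with limma 3.58.1 in R 4.3.3 to all 35 arrays with one mean for each of 7 groups, and p-values were adjusted by the Benjamini-Hochberg method over 12076 probe sets. The arrays are not stated to be separate animals, so the p-values measure the spread between arrays, and the number of arrays limits the precision. Probe sets were named from the platform annotation, with symbols from RefSeq GRCm38.p6 gene IDs (20364 of 20380 probe sets naming 1 gene matched), and the brightest tested probe set, by its mean over the 35 arrays, stood for a gene. The 42 gene lists and the members were chosen with earlier results of these data known. Named were a fixed set of marker genes, up to 3 called genes per list with the largest differences, the largest rises and falls without overlap, and the largest changes since days 4 and 14; Cxcl10 and Irf1, genes below the filter and the lone exceptions of a list were chosen after their values were seen. The tested sex-linked genes, all Y-linked (0 of 3 called, 0 at an unadjusted p under 0.05), and 13 scaling reference genes (1 called, B2m) served as checks. The X-linked Xist was below the filter and not tested, at 3.10 ± 0.16 in allografts and 5.42 ± 1.66 in isografts (SD, n = 5 each), and the labels give no sex. List levels are means of the tested genes' log2 values in an array.

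The model was also run on data made with known changes, with each probe set's level and spread taken from the real arrays. It called 61 of 100 changes of 1 log2 unit and 93 of 100 changes of 2 log2 units. In addition, 11 unchanged probe sets were called. The made data had independent noise for each probe set and array, without deviations shared across an array. Alternatives were other filters, the 10 arrays alone, array weights, other variance models, centring and normalisation, averaged probe sets, a replicate block and each array left out. Centring on the scaling reference without B2m, and leaving out native and isograft arrays numbered 5 together, were added after seeing the data.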

Additional observations from a re-analysis of the deposited data

Results flagged for a closer look

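Each group of 5 arrays was searched for a highest or lowest array whose gap to the next exceeded Dixon's 95% critical value of 0.71 times the range. Of 326 groups examined, 32 had such an array (9.82%). Chance gives about 1 in 20 for independent groups of normally distributed values. These groups come from the same 10 arrays and share genes, so the share found was not tested against chance. Isograft replicate 5 was the one most often singled out. It was lowest among isografts for Scgb1a1 (11.49), Reg3g (11.27), Dmbt1 (8.29), Atp1b1 (10.28), Cxcl15 (7.53), Jchain (4.23), Tg (11.6) and Pth (8.79), and for the levels of the secretory epithelium (9.63) and of the thyroid and parathyroid list (7.39). It was highest for C1qtnf3 (8.88) and for the skin and hair follicle level (7.98). Isograft replicate 1 was highest for Cd274 (7.35), Fcgr4 (6.7) and Slamf8 (4.76), for the levels of cytotoxic and NK cell (5.39), interferon-gamma (7.505) and checkpoint genes (7.47), and lowest for the cartilage level (7.295).

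Among allografts, replicate 1 was highest for Krt15 (2.80), Aqp4 (5.49), Atp1b1 (9.16), the ciliated level (5.999) and the level of ion and water transport genes (6.58), and lowest for Col1a1 (13.13). Replicate 2 was highest for Pdk1 (7.76) and for the sterol and fatty acid synthesis level (8.66). Replicate 3 was highest for Foxa1 (3.18) and replicate 4 lowest for Cnn1 (3.70). Replicate 5 was highest for Pigr (3.54) and Tg (3.955) and lowest for Penk (8.94). Several of these values lie near background, where a small gap is enough.

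The difference between allografts and isografts changed between days, tested as an interaction, for 129 probe sets since day 14 and for 621 since day 4. Among the named genes 26 changed since day 14. The change was downward for the epithelial genes Ltf (-5.86), Krt19 (-5.38), Krt7 (-4.95), Wfdc2 (-4.80), Krt5 (-4.44), Dsp (-4.30), Bpifa1 (-3.92), Krt18 (-3.83), Aqp5 (-3.62), Lcn2 (-3.30), Scgb1a1 (-2.91) and Pigr (-2.69). It was also downward for S100a9 (-3.84), Mki67 (-2.375) and Acta2 (-1.60). The change was upward for the cartilage genes Mia (4.55), Col9a1 (4.42), Matn4 (4.23), Chad (4.11) and Col2a1 (3.17). Upward changes outside the cartilage list were those of Penk (5.12), Otor (4.88), Egfl6 (3.83), Col8a1 (2.38), Ccn3 (1.91) and Adgre1 (1.54).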

How the results depend on the processing

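At day 25, 104 of 121 named genes were called. Of these, 63 were tested and called in all 24 settings, and 28 kept the call in every setting that tested them but were too dim for the filter at log2 7. Cd3e, Batf3, Jchain, Ripk3, S100a8, Cxcl2, Thbs1, Fn1, Timp1, Mmp13, Col11a1, Ccnd1 and Ctsl lost it in at least 1, and Cd68, Col1a1, Col3a1, Matn4 and Otor gained one in at least 1. With single arrays left out, the number of probe sets called lay between 1462 and 1877 (higher 627 to 860, lower 805 to 1017). For the change since day 14 it lay between 95 and 158 (higher 40 to 66, lower 50 to 94), and for the change since day 4 between 529 and 708 (higher 110 to 193, lower 412 to 529). The labels give no shared animal or day for a replicate number, and the criterion for pairing, every same-number correlation of deviations over 0.1, was not met: they lay between -0.18 and 0.35, 3 of 5 over 0.1, and 2 of 5 allograft and 2 of 5 isograft arrays correlated best with their own number. With a replicate block 1768 probe sets were called at day 25 (814 higher, 954 lower), 149 for the change since day 14 and 621 for that since day 4. Among the named genes the block added the call of Matn4 (1.36, adjusted p = 0.020), and it gave 4 cartilage rises. Fitted on the 10 arrays alone, 505 probe sets were called higher. Centring on the scaling reference genes, of which B2m rose, shifted the median of all differences by -0.20 and gave 519 higher and 1817 lower, and without B2m (shift -0.15) 1449 lower. A filter at log2 7 tests fewer probe sets and called 984, 504 higher and 480 lower. At an adjusted p under 0.01, 502 were higher, and 1044 of the called differed by at least 2-fold, 452 higher and 592 lower. Since day 14, 63 had changed at an adjusted p under 0.01, 31 upward and 32 downward. Since day 4, array weights gave 1104 (388 upward, 716 downward), centring on the scaling reference 934 (101 and 833), the filter at log2 7 326 (87 and 239), and an adjusted p under 0.01 gave 394, 70 of them upward. Reversed signs, none of them called, were those of Tgfb1 without allograft replicate 5 (-0.11, and up to 0.54 without another array), of Mki67 with the scaling reference (-0.034) and without allograft replicate 5 (-0.030) or isograft replicate 4 (-0.074, and up to 0.36 without another array), and of Ckm with array weights (0.048). The cause of these changes was not tested, and some of the settings also used fewer probe sets or arrays. Falls to levels near background are limited by signal over background.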

Other observations

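Alternative activation genes below the filter on level included Cd163, a haemoglobin scavenger receptor of macrophages, at 4.78 ± 0.03 in allografts and 6.25 ± 1.43 in isografts (SD, n = 5 each). Alox15, a lipoxygenase, was at 3.88 ± 0.65 in allografts and 5.36 ± 1.91 in isografts. Both genes were chosen after their values were seen, and neither was tested. Among nerve-associated genes, Ncam1, a neural cell adhesion molecule that muscle can also express, had 6.10, 7.09, 7.77, 6.17 and 6.05 in allografts, against 5.53, 5.45, 5.13, 4.88 and 5.30 in isografts. All allografts were above all isografts, at a difference of 1.38 ± 0.39 (SE, adjusted p = 0.011). Mbp, a myelin protein, had 6.17, 6.64, 5.77, 6.77 and 6.67 in allografts, against 7.16, 7.10, 7.58, 7.57 and 6.90 in isografts, and all allografts were below all isografts, at a difference of -0.86 ± 0.22 (SE, adjusted p = 0.0048).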
